A study of Mus musculus with 12 samples.

Results

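The response of wild-type macrophages to lipopolysaccharide (LPS) with interferon-γ was followed in 6 libraries, 3 of stimulated cells (WT M1) and 3 of unstimulated cells (WT M0). They were chosen by their labels, as the wild-type columns of the table of counts, and made up 6 of the 12 libraries of the study. Of 24552 rows in the table, 2333 had enough counts for a test, and these rows held 97.39% of the counts of the wild-type libraries. The other 6 libraries came from mice lacking Gpr31b, a G protein-coupled receptor gene, in the same states (KO M1 and KO M0). They entered the estimate of spread and 1 test of a difference between genotypes.

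WT M1 cells were bone marrow-derived macrophages of wild-type mice that had received LPS and IFN-γ, and WT M0 cells were the same kind of culture without stimulus. The labels give no strain, age, sex, dose or time of stimulation. They do not say that the 3 libraries of a group came from separate animals, so every p-value measures the spread between these libraries, which may be technical. WT M1 libraries held 585465, 395050 and 372878 counts, and WT M0 libraries held 471467, 396676 and 465350. The 10 highest rows took 33.29% to 34.51% of the counts in WT M1 and 20.73% to 22.06% in WT M0. Replicates correlated at 0.924 to 0.947 in WT M1 and at 0.951 to 0.958 in WT M0 across rows, which are not independent, on the log2 CPM scale.

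LPS, a component of the outer membrane of Gram-negative bacteria, is sensed by Toll-like receptor 4 and acts through NF-κB and MAP kinases. IFN-γ acts through its receptor and JAK kinases. Macrophages given both are known for making chemokines, interferon-induced GTPases and nitric oxide, and also for a changed metabolism, a slower cell cycle and altered endocytic receptors.

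Each row carries a gene symbol, but its reads appear to come from the strand opposite to that gene. Rows that overlap an exon of an opposite-strand gene held 91.69% of all counts that fell into rows matched to a gene. A row is therefore given by its symbol, followed by the opposite-strand gene whose exons overlap its own by 20 bases or more ("the Psd row, opposite Nfkb2"). Where no such gene was found, the row is named alone, or with an opposite-strand gene that ends within 5000 bases before it. The table does not show which gene gave the reads of a row, and gene roles are given as background. In bulk RNA, fewer cells of a type and less RNA per cell cannot be told apart.

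The label of the cells was compared with marker genes. All 22 macrophage identity genes had a count in wild-type libraries and 14 of their rows were tested, but their summed level was low, at 755 to 1127 CPM (each count relative to the TMM-adjusted total of its library) in WT M1 and 1512 to 1628 CPM in WT M0. Of these 14 rows 5 were called higher and 2 lower, against 25.7% and 23.1% of all tested rows. With library size alone in place of the TMM-adjusted total, 4 were higher and 3 lower. The Adgre1 and Cd14 rows were among the 5, and the Lyz2 row and the row opposite Csf1r were the 2. Markers of neutrophils, T and NK cells, B cells, red cells, mast cells and fibroblasts had 0 tested rows. Their summed levels were at most 2.01, 0, 6.04, 0, 13.3 and 13.3 CPM in WT M1 libraries, in that order, and at most 3.75, 0, 2.13, 17.5, 21.3 and 20.6 CPM in WT M0 libraries. Of the 9 dendritic cell marker genes, 2 had tested rows, and these went in opposite directions. The Xcr1 row, of a chemokine receptor gene, was higher. It had 545, 655 and 579 CPM in WT M1 and 22.7, 40.5 and 18.7 CPM in WT M0. The Clec9a row averaged 0.67 CPM in WT M1 and 10.1 CPM in WT M0. Its log2 fold change was −3.22, and it was not called lower. With library size alone in place of the TMM-adjusted total, 1 dendritic cell marker row was called higher and 1 lower. As few counts fell into the rows of the genes themselves, these levels say little about how much of each gene was expressed. The Gpr31b row held 2 counts in each WT M1 library and 0 in each WT M0 library, too few for a test.

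Stimulation changed close to every other tested row. By edgeR's quasi-likelihood test with Benjamini-Hochberg adjustment over all tested rows, 1138 rows were called at an adjusted p under 0.05 (48.8% of those tested). Of these, 600 were higher in WT M1 (25.7%) and 538 were lower (23.1%), and 873 changed 2-fold or more (37.4%). The 3 WT M1 libraries lay wholly above or wholly below the 3 WT M0 libraries in 1310 rows (56.2%), above in 658 (28.2%) and below in 652 (27.9%). Rows of interferon targets and chemokines were few among those tested, 68 of 2333, but 58 of them were higher and 4 were lower. Outside both lists lay 2265 of the 2333 tested rows, 90.3% of the higher rows and 99.3% of the lower rows. Among the rows outside these lists, 542 were higher, 534 were lower and 1189 were not called. Directions are relative to the TMM scale: with library size alone the median log2 fold change of all tested rows was −0.53, against −0.03 on the TMM scale, and 397 rows were called higher and 881 lower.

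**Figure D1:**
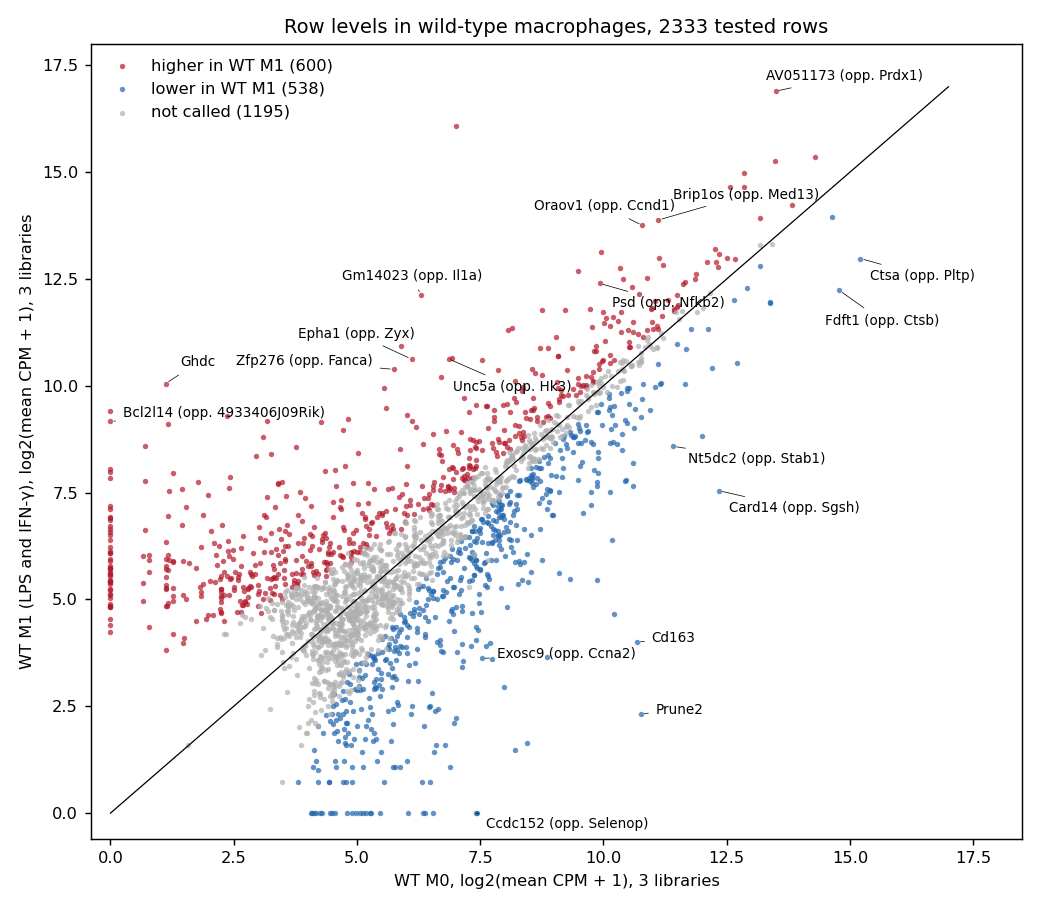
Mean level of each of the 2333 tested rows in WT M1 libraries (vertical axis) against WT M0 libraries (horizontal axis), both as log2(CPM + 1) over 3 libraries; the line marks equal levels, and opp. names the opposite-strand gene. Red rows (600) were called higher and blue rows (538) lower in WT M1, and grey rows (1195) were not called.

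The rows of largest fold rise outside the interferon and chemokine lists included the Bcl2l14 row, opposite 4933406J09Rik, at 643, 580 and 499 CPM in WT M1 and 0 in all WT M0 libraries. It was at least 308-fold higher, taken against 3 counts over the WT M0 group. The Ghdc row had 1103, 855 and 1224 CPM in WT M1 and 3.5, 0 and 0 CPM in WT M0. Its 1200 counts against 2 gave a ratio of 837 with a 95% counting interval from 231 to 6920, which covers counting error only. Of the counts from 1 to 12 in the table, 60.9% were even, so counts may not be independent and such intervals may be too narrow. These rows lay near 0 in unstimulated cells and near the middle of the range in stimulated cells. The Rnf219 row, of a RING finger gene, held 625 counts in WT M1 against 2 in WT M0, a ratio of 436 (interval 120 to 3610). The Mrpl39 row was at 94.5, 42.3 and 86.5 CPM in WT M1 and 0 in WT M0, at least 40.4-fold higher, and lies 2331 bases past the end of Mir155hg, the host transcript of microRNA-155. In all, 47 higher rows were at 0 in every WT M0 library and 24 lower rows were at 0 in every WT M1 library.

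Among the largest falls, the Prune2 row had 2.01, 0 and 9.98 CPM in WT M1 and 1726, 1731 and 1735 CPM in WT M0. Its log2 fold change was −8.82 (−10.18 without WT M1 replicate 3). The 9130019P16Rik row, opposite Chn2, the gene of a Rac-inactivating protein, held 2 counts in WT M1 and 549 in WT M0. The ratio of WT M0 to WT M1 was 197 (interval 54.2 to 1630). The Gm13031 row, opposite Padi2, which converts protein arginine to citrulline, held 2 counts against 460, a ratio of 165 (interval 45.4 to 1370). The Gm11978 row, opposite the receptor-modifying gene Ramp3, went the other way, at 201, 275 and 180 CPM in WT M1 and 0, 0 and 1.87 CPM in WT M0. Rows of largest rise or fall were named only if no library of either state lay among those of the other. The lack of overlap in these 4 rows follows from that choice.

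Signalling genes upstream of the response were described first. Of 11 tested rows of the NF-κB and Toll-like receptor list, 6 rose and 0 fell, with a median log2 fold change of 2.20 (6 and 1 with library size alone), and of 13 cytokine signalling rows 7 rose and 2 fell (median 1.69), or 6 and 2 with library size alone. MAP kinase and AP-1 rows rose in 5 of 9 and fell in 0 (median 1.11), or rose in 3 and fell in 1 with library size alone. Over all tested rows the median was −0.03, and 25.7% rose and 23.1% fell. The Psd row, opposite Nfkb2, the gene of the p100 precursor of NF-κB, had 5352, 4479 and 6334 CPM in WT M1 and 1044, 972 and 901 CPM in WT M0. Every WT M1 library was above every WT M0 library, with a log2 fold change of 2.47 (SE 0.16, edgeR adjusted p = 3.34e-11). The Psd row spans 46312087 to 46327156 on the minus strand of chromosome 19 (GRCm38, also called mm10).

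Cytokine genes rose beside it. The Gm14023 row, opposite Il1a, the gene of interleukin-1α (chromosome 2, 129297370 to 129307826, plus strand), had 3822, 3440 and 6148 CPM in WT M1 and 80.5, 51.2 and 101 CPM in WT M0. This was a log2 fold change of 5.83 (SE 0.37, edgeR adjusted p = 7.09e-07). The Gm16712 row, opposite Ebi3, which codes for a subunit shared by interleukin-27 and interleukin-35, averaged 6934 ± 974 CPM in WT M1 and 1295 ± 134 CPM in WT M0 (SD, n = 3 each). The Apobr row overlaps Cln3 and also Il27, the gene of the other interleukin-27 subunit, and changed by 3.91 on the log2 scale. The Numa1 row, opposite Il18bp, a secreted decoy of interleukin-18, averaged 3515 ± 276 CPM in WT M1 and 599 ± 96.9 CPM in WT M0. Rows opposite 3 cytokine genes and 1 cytokine decoy, named for large changes, stood apart by state with no overlap. So did 56.2% of all tested rows. The reads of the Apobr row cannot be assigned to Il27 or Cln3.

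Receptor rows went in both directions. The Tlr1 row, of a receptor for bacterial lipopeptides, was at least 120-fold higher (237, 196 and 253 CPM in WT M1, 0 in WT M0). The Cd14 row, of the LPS co-receptor, averaged 66.9 ± 2.8 CPM in WT M1 and 6.42 ± 2.44 CPM in WT M0. The Hmgxb3 row, opposite Csf1r, the receptor for the growth factor that keeps macrophages alive, had 195, 145 and 99.8 CPM in WT M1 and 887, 938 and 764 CPM in WT M0. That row fell by 2.52 on the log2 scale (SE 0.18, edgeR adjusted p = 1.08e-13). Of 12 rows for G protein-coupled receptors and their partners, 2 rose and 7 fell, against 25.7% and 23.1% of all rows. The Ddx39 row, opposite the adhesion receptor gene Adgre5 (CD97), fell to 8.04, 12.1 and 13.3 CPM in WT M1, against 180, 258 and 197 CPM in WT M0. The Gm11696 row, opposite Gna13, the gene of a G protein α subunit, rose by 1.43 (3262, 3042 and 3130 CPM in WT M1, 1076, 1209 and 1214 CPM in WT M0).

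Promoter sequence is shown for 5 of these and later genes that lie opposite called rows. Other rows that changed as much, such as those opposite Ctsb and Ccnd1, are not shown. The motif marked is not the same for all genes, and each of the 5 holds a match. The display therefore does not measure how common a motif is. Each sequence is the 250 bases before the start of the gene from RefSeq (GRCm38.p6), 5′ to 3′ on the strand of the gene. Capitals mark every match, on either strand, to 1 motif: the κB motif (GGG, any 2 bases, TT, any base, CC) in Nfkb2 (chr19:46304487-46304736, plus strand) and Ebi3 (chr17:55952373-55952622, plus), the interferon-stimulated response element (ISRE; GAAA, any 2 bases, GAAA) in Gna13 (chr11:109362544-109362793, plus), the AP-1 motif TGANTCA in Il1a (chr2:129309973-129310222, minus) and the E-box CACGTG in Sgsh (chr11:119355511-119355760, minus).
Nfkb2: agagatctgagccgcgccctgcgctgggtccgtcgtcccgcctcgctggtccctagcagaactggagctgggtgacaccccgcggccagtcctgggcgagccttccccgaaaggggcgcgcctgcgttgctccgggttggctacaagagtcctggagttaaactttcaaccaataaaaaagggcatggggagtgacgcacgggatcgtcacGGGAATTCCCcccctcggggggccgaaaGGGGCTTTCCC
Ebi3: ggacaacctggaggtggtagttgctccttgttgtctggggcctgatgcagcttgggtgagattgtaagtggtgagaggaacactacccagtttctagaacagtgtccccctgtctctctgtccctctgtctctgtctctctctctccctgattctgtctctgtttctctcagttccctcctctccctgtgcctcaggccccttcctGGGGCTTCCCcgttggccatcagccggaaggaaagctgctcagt
Gna13: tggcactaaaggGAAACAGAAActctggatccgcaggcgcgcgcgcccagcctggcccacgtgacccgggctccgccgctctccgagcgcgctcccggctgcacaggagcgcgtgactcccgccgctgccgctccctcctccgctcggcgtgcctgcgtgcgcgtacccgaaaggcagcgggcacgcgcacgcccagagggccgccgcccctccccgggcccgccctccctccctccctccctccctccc
Il1a: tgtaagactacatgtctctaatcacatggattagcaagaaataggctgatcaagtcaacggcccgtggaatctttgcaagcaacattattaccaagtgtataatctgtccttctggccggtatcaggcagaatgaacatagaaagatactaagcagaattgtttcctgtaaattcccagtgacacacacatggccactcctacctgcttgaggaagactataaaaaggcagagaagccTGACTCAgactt
Sgsh: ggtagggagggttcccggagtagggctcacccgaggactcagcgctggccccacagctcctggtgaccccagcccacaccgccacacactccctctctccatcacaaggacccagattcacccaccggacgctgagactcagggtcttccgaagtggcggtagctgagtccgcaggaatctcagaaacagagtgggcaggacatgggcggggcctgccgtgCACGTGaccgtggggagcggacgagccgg

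Nfkb2 held 3 κB matches, of which the last 2 overlap, beginning 39, 11 and 10 bases before the start. Ebi3 held 1, beginning 44 bases before it. The Gna13, Il1a and Sgsh matches began 238, 12 and 29 bases before their starts. Over all genes opposite a called row, the ISRE letters were in 16 of 261 promoters of genes opposite a row that rose (6.13%), 5 of 290 opposite a row that fell (1.72%) and 9 of 510 opposite uncalled rows only (1.76%). They were in 3.04% of all 27025 promoters of the table. The 16 include Gbp2, Slfn5 and other interferon targets. The κB letters were in 6.13%, 5.17%, 3.73% and 4.0% in the same order, AP-1 in 4.98%, 5.17%, 4.31% and 6.87%, and the E-box in 6.13%, 7.93%, 7.45% and 6.05%. Of the other motifs searched, the interferon-γ-activated site (GAS; TTC, any 3 bases, GAA) was in 3.45%, 6.55%, 4.9% and 7.18%, and the cell cycle motif CHR (TTTGAA) in 33 of 261, 29 of 290, 44 of 510 and 4398 of 27025 promoters. These shares are a description of letters in a window and had no test.

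**Figure D2:**
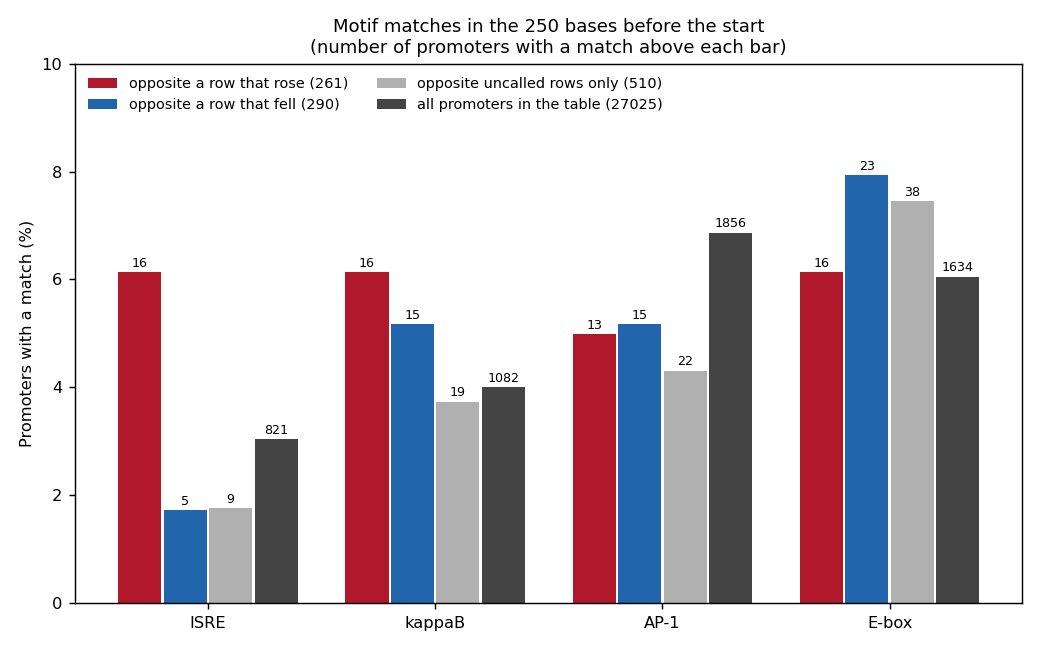
Percent of promoters (vertical axis) with a match to each of 4 of the 6 motifs searched in the 250 bases before the start, for genes opposite a row that rose in WT M1 (261 promoters), opposite a row that fell (290), opposite uncalled rows only (510) and for all 27025 promoters. Numbers above bars count promoters with a match; the ISRE bar is highest for genes opposite a row that rose, at 6.13%.

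Redox and iron genes rose more often than they fell. Of 22 tested rows, 12 rose and 4 fell (with library size alone, 9 and 7), against 25.7% and 23.1% of all rows. The median log2 fold change was 1.27. The AV051173 row, placed opposite Prdx1 on chromosome 4 by its RefSeq span, was the highest row of stimulated cells. Prdx1 codes for a peroxiredoxin that removes hydrogen peroxide. The row had 116934, 134720 and 114212 CPM in WT M1 and 10029, 10909 and 13676 CPM in WT M0, and the ranges lay far apart. The Prdx1 row itself averaged 279 ± 93.3 CPM in WT M1 and 25.9 ± 10.3 CPM in WT M0, and the AV051173 and Prdx1 rows changed by 3.40 (SE 0.15) and 3.45 (SE 0.33) on the log2 scale. The Fth1 row, of the ferritin heavy chain that stores iron, averaged 1320 ± 132 CPM in WT M1 and 233 ± 25.2 CPM in WT M0. The Sod2 row, of the mitochondrial superoxide dismutase, held 60 counts against 2, a ratio of 41.8 (interval 11.1 to 353).

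Among the 4 rows of this list that fell were those opposite the thioredoxin-binding gene Txnip and the selenium carrier gene Selenop, and the Cd163 row. The Gm15441 row, opposite Txnip, had 15561, 17743 and 13853 CPM in WT M1 and 26339, 27439 and 22821 CPM in WT M0, a change of −0.70 (SE 0.10). The Ccdc152 row, opposite Selenop, was at 0 in WT M1 and at 173, 175 and 161 CPM in WT M0, at least 63.8-fold lower. The Cd163 row, of the receptor that takes up haemoglobin bound to haptoglobin, had 4.02, 21.1 and 20 CPM in WT M1 and 2081, 1663 and 1163 CPM in WT M0. Its log2 fold change was −6.89 (−6.31 without WT M1 replicate 1).

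Glycolysis rows rose and none of those tested fell. Of 11 tested rows of glycolysis and the pentose phosphate path, 9 rose (5 with library size alone), against 25.7% of all rows. Their median was 2.03 over the 11. The 9 include the row of the growth factor gene Vegfa (log2 fold change 1.92), which is not an enzyme of either path. The Unc5a row, opposite the hexokinase gene Hk3, whose enzyme traps glucose in the cell (chromosome 13, 54949411 to 55006018, plus strand), had 1562, 1432 and 1763 CPM in WT M1 and 105, 109 and 131 CPM in WT M0. This was a log2 fold change of 3.78 (SE 0.15, edgeR adjusted p = 5.17e-20). The overlap of these rows is 34 bases, and the Hk3 row in turn was at 84.4, 69.5 and 53.2 CPM in WT M1 and at 0 in WT M0. Rows of later steps were low in both states, as with the aldolase row Aldoa (93.3 ± 13.3 CPM in WT M1, 19.3 ± 6.05 CPM in WT M0) and the pyruvate kinase row Pkm (89.6 ± 10.7 CPM in WT M1, 19 ± 12.4 CPM in WT M0). The log2 fold change of Pkm was 2.18, and 2.87 without WT M0 replicate 1.

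Most mitochondrial rows were not called. Of 15 tested rows of the citric acid cycle and the respiratory chain, 2 rose, 2 fell and 11 were not called (2 rose and 6 fell with library size alone). Over all tested rows 25.7% rose and 23.1% fell. The Acod1 row, of the enzyme that makes itaconate from a citric acid cycle intermediate, held 228 counts in WT M1 and 3 in WT M0, a ratio of 106 (interval 35.8 to 518). The Ino80dos row, opposite the complex I gene Ndufs1, averaged 842 ± 55 CPM in WT M1 and 1113 ± 37.9 CPM in WT M0, a fall of 1.32-fold. Of 7 rows of fatty acid oxidation and peroxisomes, 2 fell (28.6%, against 23.1% of all rows) and 0 rose, or 4 fell with library size alone. One of these was the 4931431C16Rik row, opposite the peroxisomal oxidase gene Acox3, with 1101, 1172 and 935 CPM in WT M1 and 2193, 2349 and 2377 CPM in WT M0.

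Amino acid and NAD rows split evenly, with 5 higher and 5 lower of 13 (4 and 6 with library size alone). Of all tested rows 25.7% were higher and 23.1% lower. The Nos2 row, of the inducible nitric oxide synthase, held 121 counts in WT M1 and 1 in WT M0. The Slc7a2 row, of an arginine transporter, lies opposite Gm26584 and so was not among these 13. It was at 30.1, 66.5 and 29.9 CPM in WT M1 and 0 in WT M0, at least 21.4-fold higher. The Vti1b row, opposite the mitochondrial arginase gene Arg2, fell to 54.3, 27.2 and 76.5 CPM in WT M1, against 129, 160 and 227 CPM in WT M0. The Nat8l row, of the enzyme for N-acetylaspartate and 1263 bases past the end of Poln, was at 0 in WT M1 and at 149, 188 and 180 CPM in WT M0.

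Lysosome rows changed in both directions. Of 38 tested rows of lysosome and autophagy genes, 11 rose (28.9%, against 25.7% of all tested rows), 12 fell (31.6%, against 23.1%) and 15 were not called, with a median of −0.29 (8 rose and 17 fell with library size alone). Rows opposite lysosomal hydrolases were among the largest falls in CPM of the whole response. The Fdft1 row, opposite the protease gene Ctsb (chromosome 14, 63145150 to 63179578, minus strand), had 4439, 4123 and 5878 CPM in WT M1 and 27063, 27991 and 29684 CPM in WT M0. It fell by 2.55 on the log2 scale (SE 0.10, edgeR adjusted p = 1.01e-18). The Card14 row, opposite Sgsh, which degrades heparan sulfate (chromosome 11, 119307768 to 119345375, plus strand), had 157, 133 and 269 CPM in WT M1 and 4789, 5333 and 5456 CPM in WT M0. It fell by 4.82 (SE 0.17, edgeR adjusted p = 7.47e-17). The highest WT M1 library of each row lay well under its lowest WT M0 library.

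The Ctsd row, of another lysosomal protease, averaged 42.9 ± 9.11 CPM in WT M1 and 324 ± 25.9 CPM in WT M0. Ctsa, which protects other lysosomal enzymes, lies opposite the Pltp row, which averaged 1358 ± 72 CPM in WT M1 and 4713 ± 187 CPM in WT M0. The Atg7 row, of an enzyme of autophagosome formation, fell by 2.65, but lies only 14 bases past the end of Vgll4. These rows were named among called falls, so their shared direction follows from that choice. All were lower in every WT M1 library than in any WT M0 library, as were 27.9% of all tested rows.

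Rows opposite other lysosomal genes rose, also at high levels. The Apobr row, which overlaps Cln3 and Il27, is counted both among these and among the cytokine signalling rows. The Ddb2 row, opposite the acid phosphatase gene Acp2, had 24060, 23669 and 29026 CPM in WT M1 and 7192, 7507 and 7353 CPM in WT M0, a change of 1.80 (SE 0.08, edgeR adjusted p = 2.17e-18). The Tmem132a row, opposite Slc15a3, a transporter of peptides and histidine out of lysosomes, had 39198, 38497 and 47799 CPM in WT M1 and 20504, 19188 and 20781 CPM in WT M0. The groups did not overlap in either row, nor in 56.2% of all tested rows. The Acp2 row, opposite Ddb2, a gene of DNA damage recognition, averaged 72.1 ± 25 CPM in WT M1 and 134 ± 12.2 CPM in WT M0 and changed by −0.86 (edgeR adjusted p = 0.0156), while the Ddb2 row rose. Leaving out WT M0 replicate 3 ended that call (−0.79), and so did leaving out WT M1 replicate 3 (−0.61).

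**Figure D3:**
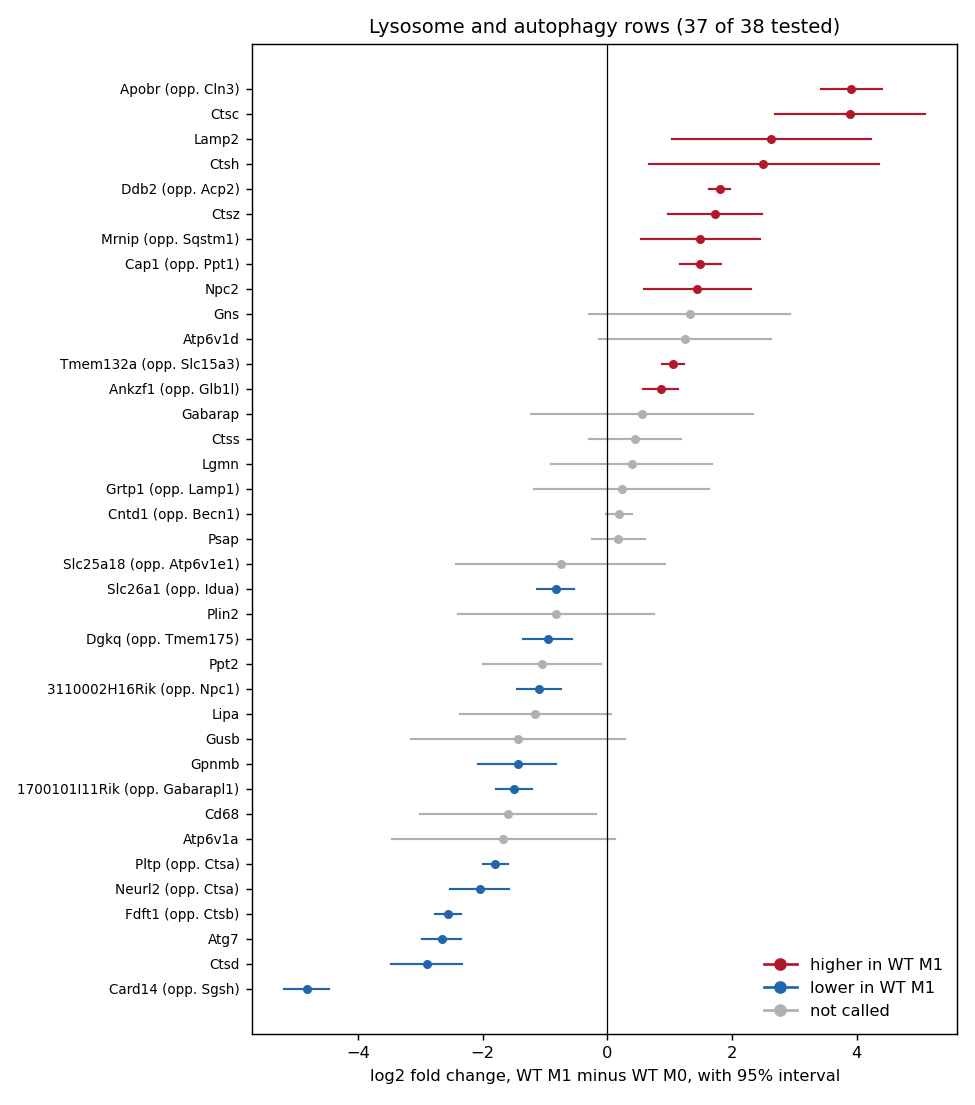
Log2 fold change (WT M1 minus WT M0, horizontal axis) with its 95% interval for 37 of the 38 tested lysosome and autophagy rows, with the opposite-strand gene in parentheses. The Apobr, Ctsc and Lamp2 rows lead the 11 rows called higher (red), the Card14 row at −4.82 and the Ctsd row at −2.90 lead the 11 drawn that were called lower (blue), and 15 were not called (grey). The Apobr row also overlaps Il27.

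Lipid handling rows also divided, with 4 higher (33.3%) and 5 lower (41.7%) of 12, or 4 and 7 with library size alone. The shares over all tested rows were 25.7% and 23.1%. The Ctsa row, opposite the phospholipid transfer gene Pltp and Neurl2, was the largest fall in mean CPM of any tested row. It had 6453, 7071 and 10696 CPM in WT M1 and 31519, 39721 and 42672 CPM in WT M0 (log2 fold change −2.23, SE 0.28, edgeR adjusted p = 1.53e-04). The Apoe row, of a lipoprotein component that carries cholesterol away, averaged 401 ± 38.6 CPM in WT M1 and 1129 ± 215 CPM in WT M0. The 1700071M16Rik row, opposite Pla2g7, whose secreted enzyme inactivates platelet-activating factor, had 7016, 8563 and 11544 CPM in WT M1 and 696, 808 and 1476 CPM in WT M0, a rise of 3.18 (SE 0.33). The Ptgs2 row, of the inducible prostaglandin synthase, was at 0 in WT M0 and at 100, 42.3 and 126 CPM in WT M1, at least 47.4-fold higher.

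Receptors and opsonins of uptake went in both directions, and 8 of 21 tested rows rose (38.1%, against 25.7% of all rows) and 5 fell (23.8%, against 23.1%; 6 each with library size alone). The Nt5dc2 row, opposite the scavenger receptor gene Stab1, had 366, 341 and 442 CPM in WT M1 and 2980, 2566 and 2634 CPM in WT M0, a change of −2.83 (SE 0.14). The Marco row, of another scavenger receptor, held 65 counts in WT M1 and 2 in WT M0, a ratio of 45.3 (interval 12.1 to 382). The C3 row, of the central complement component, averaged 329 ± 63.9 CPM in WT M1 and 6.76 ± 6.43 CPM in WT M0 (log2 fold change 5.64, between 5.01 and 6.37 without WT M0 replicate 1 or 2). The Cd300a row, of an inhibitory receptor for phospholipids, was at 0 in WT M1 and at 31.5, 29.8 and 30 CPM in WT M0.

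Cell cycle rows went in both directions. Of 15 tested rows 3 rose and 6 fell (3 and 7 with library size alone), against 25.7% and 23.1% of all rows. D-type cyclins drive the start of the cycle and cyclin A2 and mitotic proteins act later. The Oraov1 row, opposite the cyclin D1 gene Ccnd1 (chromosome 7, 144915100 to 144931701, plus strand), had 14009, 12224 and 15190 CPM in WT M1 and 1875, 1511 and 1926 CPM in WT M0. It rose by 2.96 (SE 0.22, edgeR adjusted p = 1.08e-06). The Bysl row, opposite the cyclin D3 gene Ccnd3, had 1226, 1272 and 1258 CPM in WT M1 and 409, 347 and 423 CPM in WT M0. Both D-cyclin rows were thus higher in every stimulated library.

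The Exosc9 row, opposite the cyclin A2 gene Ccna2, had 4.02, 0 and 29.9 CPM in WT M1 and 222, 130 and 199 CPM in WT M0. It fell by 4.17 (SE 0.52, edgeR adjusted p = 1.01e-07), and its value was −6.09 without WT M1 replicate 3. The Cdc23 row, opposite Kif20a, a kinesin of cell division, had 16.1, 6.04 and 33.3 CPM in WT M1 and 184, 134 and 208 CPM in WT M0. The Mki67 row, of the proliferation marker Ki-67, held 2 counts in WT M1 and 36 in WT M0, and its call was lost when WT M0 replicate 1 was left out, and also when WT M1 replicate 2 was. The Pola2 row, of a DNA polymerase subunit, stood against these, with 46 counts in WT M1 and 1 in WT M0 (ratio 64.1, interval 11 to 2590).

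DNA repair rows fell at about the share of all tested rows, with 6 lower of 23 (26.1%, against 23.1%). The higher rows were 3 of 23, against 25.7% of all rows. With library size alone 2 were higher and 13 lower. The Zfp276 row, opposite the Fanconi anaemia gene Fanca (chromosome 8, 123254195 to 123269745, plus strand), had 1184, 1223 and 1600 CPM in WT M1 and 52.5, 55.4 and 50.6 CPM in WT M0. The log2 fold change was 4.65 (SE 0.18, edgeR adjusted p = 2.24e-20). The Xrcc2 row, of a homologous recombination gene, was at 18.1, 48.3 and 33.3 CPM in WT M1 and at 0 in WT M0, at least 16.3-fold higher. Actin and adhesion rows rose in 11 of 41 (26.8%, against 25.7% of all rows) and fell in 5 (12.2%, against 23.1%), which became 8 and 9 with library size alone. The Epha1 row, opposite the focal adhesion gene Zyx (chromosome 6, 42358487 to 42373268, minus strand), had 1634, 1679 and 1424 CPM in WT M1 and 75.2, 72.5 and 56.2 CPM in WT M0 (log2 fold change 4.53, SE 0.17, edgeR adjusted p = 1.67e-20). The Chid1 row, opposite the tetraspanin gene Tspan4, fell to 211, 254 and 409 CPM in WT M1, against 1438, 1592 and 1651 CPM in WT M0.

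**Figure D4:**
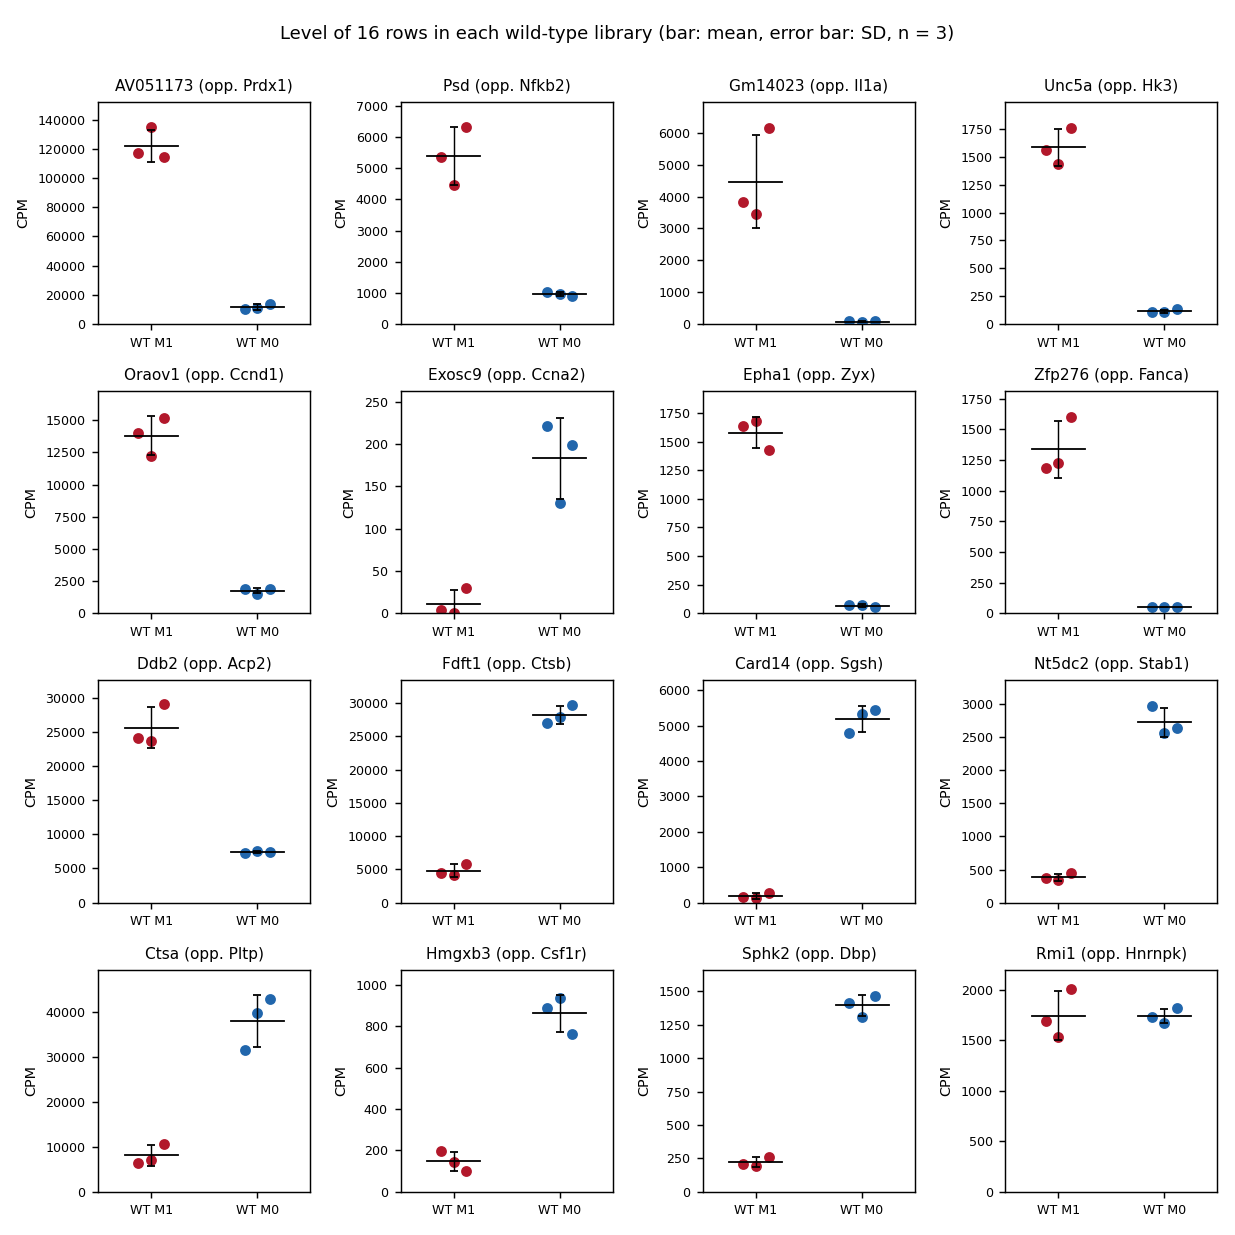
Level in CPM (vertical axis, from 0) of 16 rows in each of the 3 WT M1 libraries (red, left) and 3 WT M0 libraries (blue, right), with the mean as a bar and the SD as an error bar. In 15 of the rows no WT M1 library lies within the range of the WT M0 libraries, and in the Rmi1 row, opposite Hnrnpk, both states lie near the same level. Over all tested rows the states lay wholly apart in 56.2%.

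Transcription factor rows divided. Of 15 tested rows of myeloid transcription factors 5 rose and 5 fell (2 and 6 with library size alone), against 25.7% and 23.1% of all rows. The Cebpa row, of a factor of myeloid development, lies opposite Gm45091 and so was not among these 15. It was at 0 in WT M1 and at 117, 81 and 80.6 CPM in WT M0, at least 35.4-fold lower. The Bach2 row and the Bach2os row lie opposite each other at Bach2, a repressor gene best known from lymphocytes. Only the Bach2os row was among the 15. The Bach2 and Bach2os rows held 1 and 2 counts in WT M1 and 129 and 81 counts in WT M0, in that order. The Zeb2os row, opposite Zeb2, a factor of macrophage identity, averaged 513 ± 123 CPM in WT M1 and 1579 ± 149 CPM in WT M0. The Zeb2 row, opposite Zeb2os, averaged 1924 CPM in WT M1 and 1826 CPM in WT M0 and was not called (log2 fold change 0.07). The Rarg row, of a retinoic acid receptor, was at 102, 72.5 and 140 CPM in WT M1 and 0 in WT M0, at least 54.4-fold higher.

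Of 22 chromatin rows 5 fell (22.7%, about the 23.1% of all rows) and 2 rose (9.09%, against 25.7%), or 8 fell and 2 rose with library size alone. The Dnmt3aos row, opposite the DNA methyltransferase gene Dnmt3a, held 2 counts in WT M1 and 100 in WT M0, a ratio of WT M0 to WT M1 of 35.9 (interval 9.67 to 300). The Apobec3 row, opposite the Polycomb gene Cbx7, rose to 185, 202 and 256 CPM in WT M1, against 10.5, 8.53 and 11.2 CPM in WT M0. Apobec3 is itself an antiviral gene, and the reads cannot be assigned to either. Of 6 clock rows 1 rose and 3 fell (0 and 3 with library size alone), against 25.7% and 23.1% of all rows. The row that rose, D930015M05Rik opposite Cry2, changed by 0.86 and lost its call with library size alone (0.36), with no filter (0.81), and without WT M0 replicate 1 (0.94), 2 (0.84) or 3 (0.76) or WT M1 replicate 1 (0.68). The Sphk2 row, opposite the clock output gene Dbp and Rpl18, averaged 221 ± 37.4 CPM in WT M1 and 1396 ± 79.6 CPM in WT M0 (log2 fold change −2.66, SE 0.16). The Thra row, opposite the repressor gene Nr1d1, averaged 12.8 ± 11.8 CPM in WT M1 and 103 ± 17.4 CPM in WT M0 (−3.17, between −3.96 and −2.43 without 1 WT M1 replicate). The labels give no time of sampling.

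Rows of protein synthesis and quality control followed. Of 27 translation rows 6 fell (22.2%, about the 23.1% of all rows), 2 rose (7.41%, against 25.7%) and 19 were not called, or 8 fell and 0 rose with library size alone. The Fam69a row, opposite the ribosomal protein gene Rpl5, averaged 215 ± 20.5 CPM in WT M1 and 930 ± 128 CPM in WT M0. Of 12 heat shock rows 4 rose and 0 fell (3 and 1 with library size alone), against 25.7% and 23.1% of all rows. The 4 include the Gm6297 row, opposite the co-chaperone gene Dnaja1 (1904 ± 167 CPM in WT M1, 661 ± 55.5 CPM in WT M0). Of 16 ubiquitin and proteasome rows 7 rose (43.8%) and 3 fell (18.8%), or 5 and 3 with library size alone. The shares over all rows were 25.7% and 23.1%. The AY074887 row, opposite the proteasome core gene Psma4, averaged 1667 ± 52.3 CPM in WT M1 and 541 ± 54.5 CPM in WT M0. The Htr2b row, opposite the proteasome regulatory gene Psmd1, averaged 14.2 ± 0.901 CPM in WT M1 and 102 ± 43.4 CPM in WT M0.

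Antigen presentation rows mostly rose. Of 15 MHC class I rows 11 rose and 0 fell (median 2.49), or 9 rose and 2 fell with library size alone. Of 8 MHC class II and costimulation rows 5 rose and 0 fell (median 3.60). Over all tested rows 25.7% rose and 23.1% fell. The regulators of both classes were among the rows that rose. Their rows, and others such as Tap1 and B2m, were also in the interferon list. The 9330175E14Rik row, opposite Nlrc5, the class I activator gene, had 551, 474 and 472 CPM in WT M1 and 38.5, 17.1 and 20.6 CPM in WT M0. The Dexi row, opposite the class II activator gene Ciita, had 70.3, 60.4 and 136 CPM in WT M1 and 3.5, 12.8 and 0 CPM in WT M0 (log2 fold change 4.02, and 5.37 without WT M0 replicate 2). In the cell death list 6 of 16 rows rose (37.5%, against 25.7% of all rows) and 1 fell, or 6 and 4 with library size alone. The Mlkl row, of the executor of necroptosis, had 40.2, 48.3 and 53.2 CPM in WT M1 and 10.5, 4.26 and 3.75 CPM in WT M0 (log2 fold change 2.84, and 3.46 without WT M0 replicate 1).

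**Figure D5:**
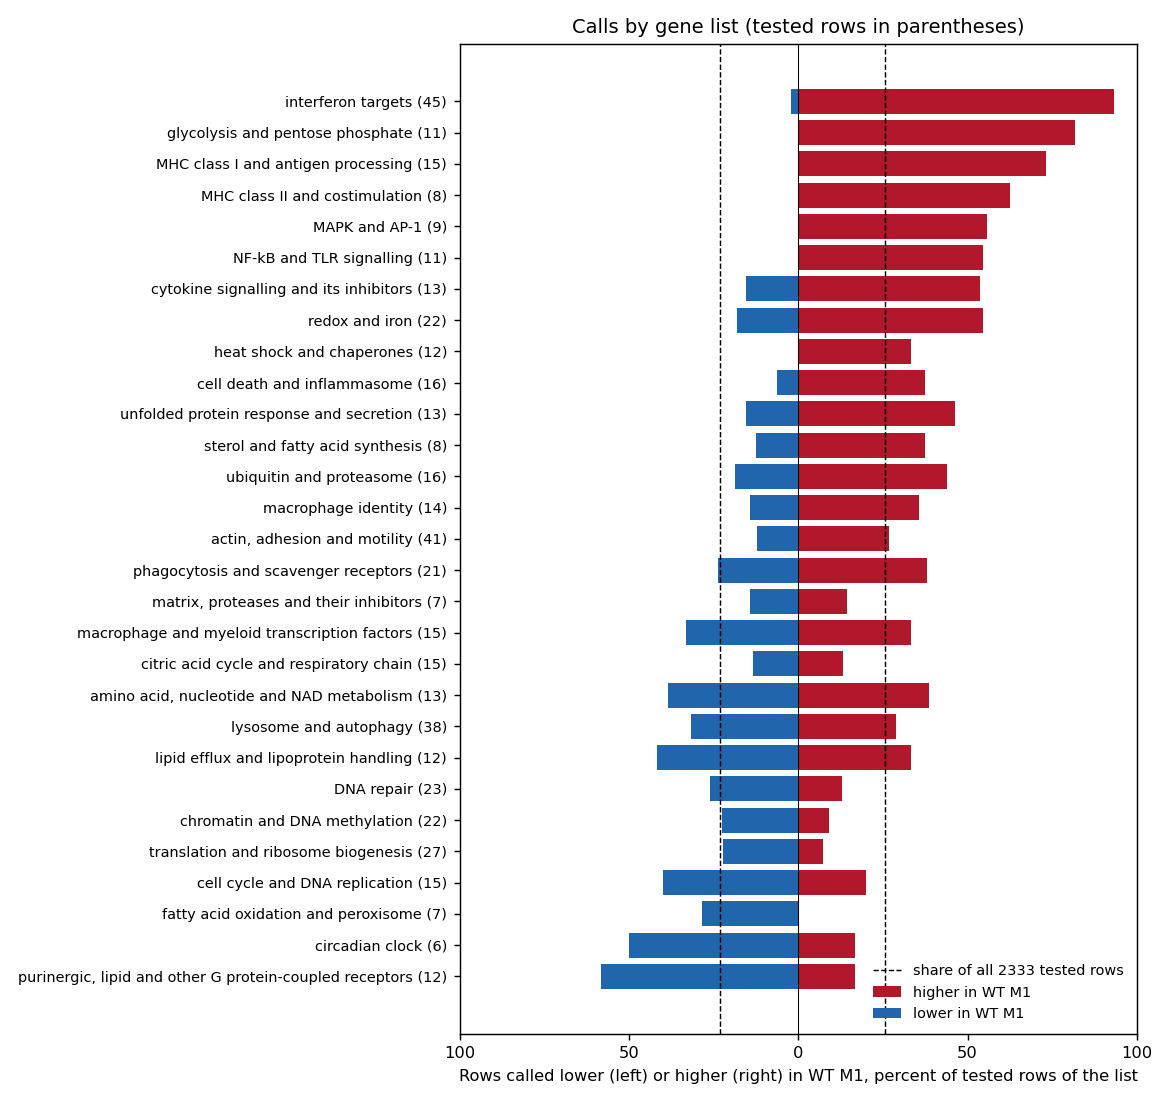
Percent of the tested rows of each gene list (number in parentheses) called higher (red, right) or lower (blue, left) in WT M1; dashed lines mark the same shares over all 2333 tested rows, 25.7% and 23.1%. Interferon targets, glycolysis and antigen presentation lie far to the right, and G protein-coupled receptor, clock and cell cycle rows lie to the left.

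Abundant rows of other functions completed the response. The Brip1os row, which overlaps Med13, a subunit of the Mediator kinase module, and Ints2, averaged 15082 ± 849 CPM in WT M1 and 2218 ± 255 CPM in WT M0, a rise of 2.77 (SE 0.09). The E230013L22Rik row, opposite the small GTPase gene Rab20, averaged 5828 ± 508 CPM in WT M1 and 1344 ± 144 CPM in WT M0. The Sla2 row, opposite Rab5if, averaged 25626 ± 1332 CPM in WT M1 and 6033 ± 385 CPM in WT M0. The Focad row, opposite Hacd4, a gene of very long fatty acid synthesis, had 476, 444 and 432 CPM in WT M1 and 3799, 4576 and 3884 CPM in WT M0. The Tctn1 row, opposite the proton channel gene Hvcn1, averaged 3906 ± 591 CPM in WT M1 and 10619 ± 2301 CPM in WT M0. The groups did not overlap in any of these 5 rows, which were named for large changes. Over all tested rows they did not overlap in 56.2%.

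Some abundant rows were level. Of the 8 rows at 200 CPM or more with a log2 fold change nearest 0, the Rmi1 row, opposite the RNA-binding protein gene Hnrnpk, had 1690, 1534 and 2013 CPM in WT M1 and 1735, 1675 and 1817 CPM in WT M0. Its difference was 0.00 with a 95% interval from −0.22 to 0.22 (−0.51 with library size alone). The Tgm4 row, opposite Zdhhc3, averaged 931 ± 117 CPM in WT M1 and 934 ± 58.4 CPM in WT M0. For 466 of the 2333 tested rows the whole 95% interval excluded changes of 2-fold or more.

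Rows were also compared by the kind of gene they lie against. Of 1545 rows with an opposite-strand exon, 366 rose and 409 fell, with a median of −0.14. Of 398 rows that begin up to 5000 bases beyond the 3′ end of an opposite-strand gene, 93 rose and 81 fell (median −0.05). Of 374 rows with neither, 133 rose and 44 fell (median 0.68). These 374 include rows of genes that macrophages are known to switch on, such as Tlr1 and Ptgs2. Where 1 gene lies opposite several tested rows, those rows can be set against each other. Of 43 such genes 13 had at least 2 called rows, and in all 13 the called rows had 1 direction. In other genes only 1 row was called. Its partner went the other way in some, as with Prdx5 (4.74) and Esrra (−0.44) opposite Trmt112. In some it went the same way, as with Tapbp (0.78) and Zbtb22 (1.07) opposite Gm19412. Of 393 pairs of tested rows that lie opposite each other, both were called in 110, in 1 direction in 76 and in opposite directions in 34.

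The response of wild-type cells was tested against that of knockout cells with the interaction of genotype and stimulation. By edgeR 0 of 2333 rows passed (0% of rows), with 144 at an unadjusted p under 0.05 and a smallest adjusted p of 0.122. DESeq2 and limma-voom also called 0 rows, with 138 and 120 at an unadjusted p under 0.05. The row with the smallest adjusted p was 0610040F04Rik, opposite the transcription factor gene Bhlhe40, with an interaction of −1.45 on the log2 scale. It was chosen after its values were seen. Without KO M0 replicate 1, 3 rows passed, and 1 row passed without KO M0 replicate 3, KO M1 replicate 1 or WT M0 replicate 2.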

How the data were processed

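PolyA RNA of mouse bone marrow-derived macrophages was sequenced in 12 libraries, with 3 libraries in each of 4 groups, after strand-specific preparation, per the labels' protocols. The authors deposited whole-number counts per gene symbol, not normalized. FastQC, Trimmomatic, HTSeq, DESeq2 and the build mm10 appear in the submitters' processing notes, without versions. The strand setting of the counting is not given in the sources used here.

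Rows were placed by symbol in GENCODE M21 (GRCm38) and set against exons of the opposite strand, with at least 20 shared bases. A row was assigned to a gene list by its opposite-strand gene, or otherwise by its own symbol. Fold changes came from edgeR 4.0.16 in R 4.3.3, with its quasi-likelihood test on all 12 libraries in 4 groups, filterByExpr, TMM scaling and Benjamini-Hochberg adjustment at 0.05. CPM values use TMM-scaled library sizes. The floor for a group at 0 was 3 counts over the group. DESeq2 1.42.0, limma-voom (limma 3.58.1), other scalings, filters and left-out libraries were alternatives. On simulated counts for this comparison, 100 rows were changed 2-fold and 100 were changed 4-fold, with 2178 rows tested. The edgeR test recovered 43% of 2-fold and 76% of 4-fold changes, with 6 false calls. Each simulated row took its mean from all 12 libraries, and a far smaller share of rows changed than was called here. These rates may therefore not carry over to the real counts.

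Rows were named by rule. The 25 largest rises and falls were taken outside interferon and chemokine lists, at 20 CPM or more. They had to be called, with no overlap between states. Also named were the 15 largest called differences in CPM each way and up to 4 called rows per list and direction. The 8 rows at 200 CPM or more nearest 0 were added. Members and lists were chosen with earlier results of these data known. Some rows are not reported here, and 1 was left out of the plot of lysosome rows.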

Additional observations from a re-analysis of the deposited data

How the results depend on the processing

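The number of called rows (1138) lay between 1040 and 1107 when 1 wild-type library was left out (548 to 588 higher, 480 to 538 lower). It was 1139 with DESeq2-type size factors, 1143 with DESeq2, 1175 with limma-voom, 1090 with no filter and 1006 in the 6 wild-type libraries alone. A stricter filter left 1251 rows, so fewer were called: 757, of which 375 were higher and 382 lower. With library size alone 1278 were called, 397 higher and 881 lower (31.1% and 68.9%, against 52.7% and 47.3% on the TMM scale). The difference of genotypes, with 0 rows, gave 3 with no filter (0610040F04Rik, Fyco1 and Sphk2), 3 with the replicate block (0610040F04Rik, Gm16712 and Sphk2), and 0 to 3 when 1 library was left out. The cause was not tested.

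Of 220 called rows among the 228 named, 180 stayed called in every alternative that tested them and 40 lost the call or reversed in at least 1. With library size alone, which moved the median of all rows to −0.53, 3 called rows reversed: Acat3 (−0.15), Gadd45gip1 (−0.00) and Snx22 (−0.10). The sign also changed in 7 uncalled rows named for lying nearest 0, where such a shift sets it: Gtf3a (−0.49), Nrd1 (−0.51), Pdap1 (−0.50), Rmi1 (−0.51), Rrp7a (−0.50), Tti2 (−0.50) and Tubgcp6 (−0.50).

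Groups share replicate numbers, but the labels do not say that a number marks a shared animal or batch. Deviations of same-numbered WT M1 and WT M0 libraries correlated at 0.0817, 0.112 and 0.0668. Those of same-numbered KO M1 and KO M0 libraries correlated at 0.0728, 0.12 and 0.0413. Differently numbered libraries correlated at −0.0992 to 0.0255, and every library correlated best with its own number. The main test did not take the numbers as pairs, and whether they mark pairs cannot be told from the labels. With the replicate block 1113 rows were called, 577 higher and 536 lower. Totals of 372878 to 585465 counts limit rows of few counts: 3 counts over a group correspond to 2.66 CPM in WT M1 and 1.91 CPM in WT M0.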

Other observations

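Rows that lie next to each other on 1 strand, with a gap of up to 20000 bases, formed 202 pairs, of which 54 had both rows called. In 21 pairs both were higher, in 19 both were lower and in 14 the directions differed. Among the 26 pairs in which neither row had an opposite-strand exon, 9 had both rows called, with 8 higher, 1 lower and 0 in opposite directions. The Kcnh4, Ghdc and Stat5b rows follow each other on the minus strand of chromosome 11, with gaps of 6089 and 9773 bases, and the Tlr1 and Tlr6 rows lie 18467 bases apart on chromosome 5. The Xcr1 row lies 415 bases from the Fyco1 row on chromosome 9, which was chosen after its values were seen.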
